A study of Rattus norvegicus with 8 samples.

Results

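The miRNAs described here are those of the rat miR-126a and miR-210 genes, whose names on the array begin with rno-miR-126a- or rno-miR-210-. This rule found 4 of the 758 rat miRNAs measured. They were rno-miR-126a-3p, rno-miR-126a-5p, rno-miR-210-3p and rno-miR-210-5p, read by 7 of the 1806 probes and 64 spots on each array. The tissue was the prostatic urethra of male SD rats aged 10 to 12 months, taken 5 days after surgery. TULP rats underwent a simulated transurethral laser prostatectomy, in which the bladder was opened and a thulium laser vaporized the urothelium of the prostate. The sham group received an abdominal incision and no laser, and so lacked the bladder incision too. Each group held 4 rats with 1 array each. The titles, tissue names and treatment labels of the TULP samples name trauma tissue, whereas their descriptions give sham surgery as the operation before harvest, so every difference rests on the titles.

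miRNAs are short RNAs that bind messenger RNAs through their seed, bases 2 to 8, and lower the output of those messengers. miR-126 is made from within Egfl7, a gene of endothelial cells, and is known as the characteristic miRNA of endothelium, where it aids growth factor signalling during vessel formation and restrains adhesion molecules. miR-210 is the best known target among miRNAs of the hypoxia-inducible factors, rises in many oxygen-starved cells, and lowers iron-sulphur cluster assembly and mitochondrial respiration. Both are studied in wounds, where vessels are cut and oxygen falls before new vessels grow.

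The mature sequences are shown because the probes, the seeds and the neighbouring miRNAs named below are all read from them. They are from RefSeq on the GRCr8 build, which held all 4, are written 5′ to 3′, and have the seed in capitals.
rno-miR-126a-3p: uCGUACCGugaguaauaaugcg
rno-miR-126a-5p: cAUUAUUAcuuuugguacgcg
rno-miR-210-3p: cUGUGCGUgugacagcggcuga
rno-miR-210-5p: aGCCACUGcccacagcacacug
None of the 4 seeds was shared with another of the 693 mature rat miRNA names searched (0 matches for each).

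The 2 miR-126a strands lie on chromosome 3 of GRCr8, plus strand, the 5p strand at 29813182 to 29813202 and the 3p strand at 29813219 to 29813240. RefSeq lists them under a hairpin gene that it names Mir126b (29813174 to 29813246), inside the protein-coding gene Egfl7 (29802481 to 29814966). The table gives no exons or introns. The same bases are read on the minus strand as a second miRNA gene, listed as Mir126a, that gives rno-miR-126b. The mature rno-miR-126a-5p and rno-miR-126b overlap over 17 bases on opposite strands, marked in capitals here to show that each is the complement of the other.
rno-miR-126a-5p: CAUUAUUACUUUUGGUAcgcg
rno-miR-126b: UACCAAAAGUAAUAAUGugcug
The Mir210 hairpin lies on chromosome 1 of GRCr8, minus strand, at 205755923 to 205756032, within the long non-coding RNA gene LOC102553043 (205754978 to 205763340). Its 5p arm is at 205755984 to 205756005 and its 3p arm at 205755946 to 205755967. On the plus strand lies Mir3574, whose mature miRNA rno-miR-3574 covers all 22 bases of rno-miR-210-3p in reverse.
rno-miR-3574: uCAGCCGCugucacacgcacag
Both opposite-strand miRNAs were on the array, and neither rno-miR-126b nor rno-miR-3574 was detected on any of the 8 arrays.

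The probes are shown because they decide what the signal reports. Per miRNA the shorter probe is in lower case, and the extra last base of the longer one is in capitals.
rno-miR-126a-3p, 17 bases: cgcattattactcacgg
rno-miR-126a-3p, 18 bases: cgcattattactcacggT
rno-miR-126a-5p, 21 bases: cgcgtaccaaaagtaataatg
rno-miR-210-3p, 15 bases: tcagccgctgtcaca
rno-miR-210-3p, 16 bases: tcagccgctgtcacaC
rno-miR-210-5p, 13 bases: cagtgtgctgtgg
rno-miR-210-5p, 14 bases: cagtgtgctgtggG
The miR-126a-3p probes pair with bases 6 to 22 and 5 to 22 of the miRNA, and the miR-210-3p probes with bases 8 to 22 and 7 to 22. They therefore leave the first 4 and the first 6 bases unread. The miR-126a-5p probe pairs with the whole miRNA, bases 1 to 21.

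All 8 arrays came from 1 slide and 1 scan and had 0 saturated spots. They detected 136 to 156 miRNAs each. Over all detected miRNAs the signal summed to 21075 to 37357 on the sham arrays and 16787 to 19464 on the TULP arrays. TULP replicate 1 stood apart, with a mean correlation of 0.921 with the other TULP arrays and 0.919 with the sham arrays, against 0.947 to 0.956 within the group for the others. Values without it are given below for the changes of miR-210-3p and of the lists.

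miR-126a-3p was detected by both probes on all 8 arrays, and its place in the order of brightness hardly moved. Counted from the brightest of the 758 miRNAs, it ranked 35, 35, 33 and 31 on sham replicates 1 to 4 and 35, 32, 34 and 32 on TULP replicates 1 to 4. A probe counts as detected when its total signal exceeds 3 times its error. For miR-126a-3p the quotient of signal and error was 8.61 to 9.59 on the sham arrays and 7.51 to 8.33 on the TULP arrays for the 17-base probe. The 18-base probe lay near 10 on each array, from 9.80 to 9.98. No array came close to losing this miRNA.

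**Figure D1:**
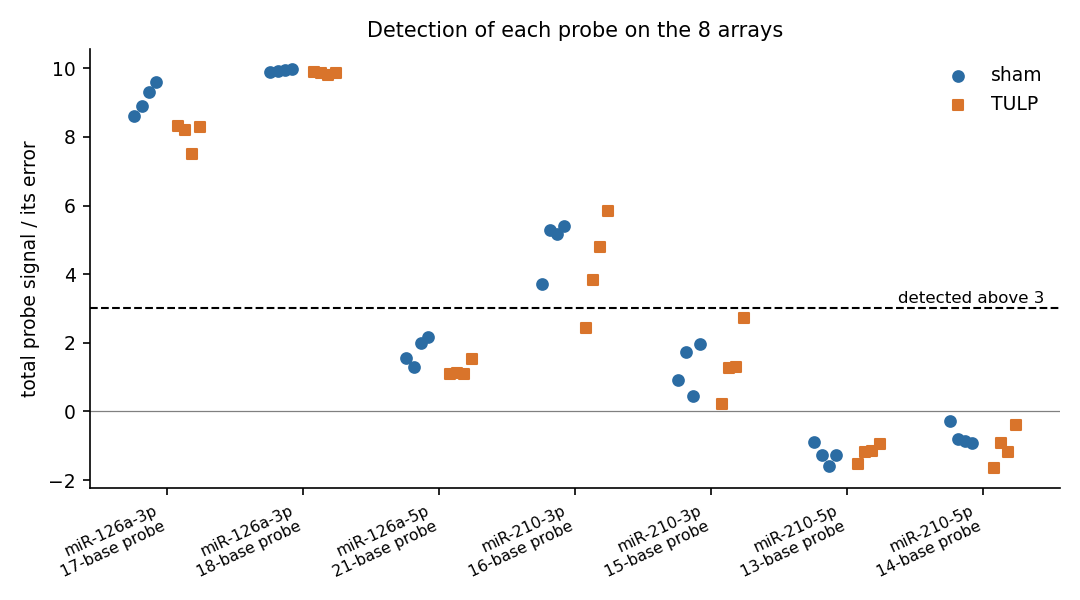
Total probe signal divided by its error for the 7 probes (horizontal axis) on the 4 sham arrays (circles) and 4 TULP arrays (squares), with the detection limit of 3 as a dashed line. Both miR-126a-3p probes lie far above the limit on every array, the 16-base miR-210-3p probe lies above it on all arrays except TULP replicate 1, and the miR-126a-5p and miR-210-5p probes lie below it throughout.

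Before normalization, the summed signal of the 2 miR-126a-3p probes was 102, 134, 154 and 230 on sham replicates 1 to 4 and 122, 99.6, 82.2 and 100 on TULP replicates 1 to 4. The TULP arrays were the lower ones on the whole, with TULP replicate 1 above the lowest sham array, so the groups overlapped. In bulk tissue, fewer endothelial cells and less miR-126a-3p per cell cannot be told apart. On the log2 scale the sham level was 7.22 ± 0.49 and the TULP level 6.64 ± 0.23 (mean ± SD, n = 4 each). All 4 TULP arrays lay below the sham mean, by 0.57 on average, which did not pass (two-sided exact permutation p = 0.0571, Benjamini-Hochberg adjusted p = 0.143 over 5 such tests). The summed signal of all detected miRNAs was lower by a similar amount, 0.64 on the log2 scale (two-sided exact permutation p = 0.0286, adjusted p = 0.143). No smaller p is possible with 4 arrays a group.

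Quantile normalization gives each array the same set of values and so keeps only the order of the miRNAs. After it, the log2 normalized signal of miR-126a-3p was 6.85, 6.85, 6.98 and 7.25 on sham replicates 1 to 4 and 6.85, 7.10, 6.91 and 7.10 on TULP replicates 1 to 4. The groups overlapped over nearly their whole range, and equal values are arrays on which it held the same rank. The sham arrays averaged 6.98 ± 0.18 and the TULP arrays 6.99 ± 0.13 (mean ± SD, n = 4 each). The change was 0.01 on the log2 scale (SE 0.12, 95% confidence interval -0.28 to 0.29, limma adjusted p = 0.992). As a fold, the interval ran from 0.824 to 1.22, so relative to the other miRNAs a 2-fold change in either direction lay outside it.

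The spread of miR-126a-3p was small as well. Its SD within groups, pooled over both, was 0.16 on the log2 scale, against a median of 0.31 over the 151 tested miRNAs, those detected on at least 4 of the 8 arrays. Of these, 128 had a larger pooled SD, and 3 had a change closer to 0. Across the 151, 14 miRNAs (9.27%) were called changed, at an adjusted p under 0.05 and a change of over 2-fold, and 46 (30.5%) passed the adjusted p alone. Neither miR-126a-3p nor miR-210-3p, the 2 members that were tested, was among them.

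**Figure D2:**
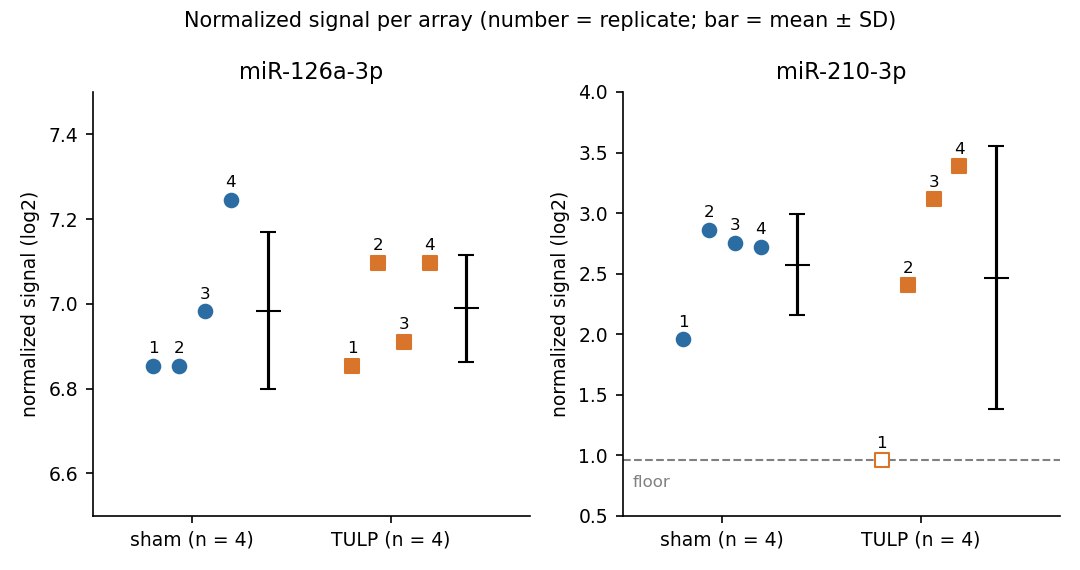
Log2 normalized signal of miR-126a-3p (left) and miR-210-3p (right) on each array, with the replicate number above each point and the mean ± SD of each group (n = 4) as a bar. The vertical axes differ in range and do not start at 0. The open square is TULP replicate 1, where miR-210-3p was not detected and sits at the floor of 0.96. The groups overlap in both panels.

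How far miR-126a-3p moved depended on what the arrays were scaled to, and so did the other miRNAs. Scaled to the 75th percentile of the miRNAs detected on all arrays its change was -0.06, and scaled to the summed signal it was 0.06. Without scaling it was -0.57 (limma adjusted p = 0.118). Scaled to the labelling spike-ins, control RNAs added before labelling, its level was 6.95, 7.11, 7.66 and 7.60 on sham replicates 1 to 4 and 6.73, 6.53, 6.21 and 6.64 on TULP replicates 1 to 4. On that scale every TULP array was below every sham array. The change was -0.80 (95% confidence interval -1.30 to -0.30, limma adjusted p = 0.0125). The median of the 151 tested miRNAs was -0.78 on that scale. With spike-in scaling, 54.3% of tested miRNAs passed the adjusted p in this direction and 49.7% had groups that did not overlap in this direction. The difference between miR-126a-3p and the median of all tested miRNAs was 0.03 after quantile normalization and -0.02 both without scaling and with the spike-ins.

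**Figure D3:**
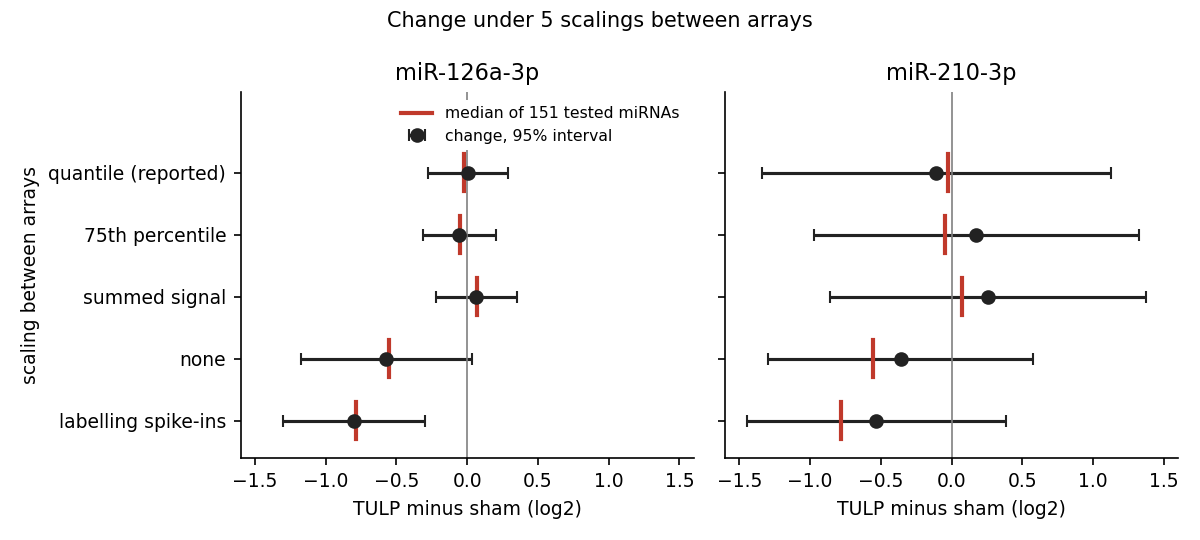
Change of miR-126a-3p (left) and miR-210-3p (right), TULP minus sham on the log2 scale, with its 95% confidence interval under 5 scalings between arrays. The vertical red bar is the median change of the 151 tested miRNAs under the same scaling. The miR-126a-3p point lies on the red bar each time, at -0.80 beside a median of -0.78 with the spike-ins, while the intervals of miR-210-3p are wide and include 0.

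The 2 miR-126a-3p probes are not independent, since one sequence contains the other, but they serve as a check on the signal. The longer probe was 4.32, 4.25, 4.14 and 4.42 times as bright as the shorter one on sham replicates 1 to 4. On TULP replicates 1 to 4 the ratio was 4.69, 4.36, 4.40 and 4.34. The ratio was highest on TULP replicate 1 and the other arrays lay close together. The log2 ratio differed by 0.05 between groups (two-sided exact permutation p = 0.143, adjusted p = 0.238 over the same 5 tests).

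The slide had 2 rows of arrays, and the groups were split unevenly between them. Sham replicate 4 lay in the first row with TULP replicates 1, 2 and 3, and the other arrays lay in the second. Within the first row the change of miR-126a-3p was -0.29, and within the second it was 0.20. The corresponding changes of miR-210-3p were -0.56 and 0.86. Each of these 4 values sets 3 arrays against 1. With the row as a block in the fit the changes were -0.05 and 0.15 (limma adjusted p = 0.918 and 0.922).

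The opposite strand of the same hairpin, miR-126a-5p, was not detected on any of the 8 arrays. Its probe total was 3.57, 3.39, 4.73 and 5.51 on sham replicates 1 to 4 and 3.09, 2.96, 2.91 and 3.86 on TULP replicates 1 to 4. The quotient of signal and error was 1.29 to 2.17 in the sham group and 1.08 to 1.51 in the TULP group, under the limit of 3. The mean spot signal minus the median of the negative control spots on the same array was 0.76 to 2.59 on the sham arrays and -0.78 to 1.17 on the TULP arrays. The signal was thus not well above background in either group, and no fold or test is given for it. The difference in change between both miR-126a strands could not be computed.

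miR-210-3p, the strand of the hypoxia response, was near the detection limit. Its 16-base probe gave totals of 4.49, 8.12, 6.98 and 7.94 on sham replicates 1 to 4 and 3.55, 5.39, 7.29 and 9.10 on TULP replicates 1 to 4. TULP replicate 1 was the lowest of the 8 and TULP replicate 4 the highest, so the TULP group enclosed the sham group. On TULP replicate 1 the signal was 2.43 times its error, below the limit, and the miRNA counted as detected on 4 sham and 3 TULP arrays. The 15-base probe was below the limit on every array, at most 2.72 times its error. Between groups the log2 total of the 16-base probe differed by -0.17 (two-sided exact permutation p = 0.686, adjusted p = 0.857 over the 5 tests).

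After normalization the log2 signal of miR-210-3p was 1.96, 2.86, 2.76 and 2.72 on sham replicates 1 to 4. On TULP replicates 2, 3 and 4 it was 2.40, 3.12 and 3.39, and TULP replicate 1 was set to the floor of 0.96. This floor is taken from the dimmest detected miRNA of each array, as the median of these 8 values. The sham arrays averaged 2.57 ± 0.42 and the TULP arrays 2.47 ± 1.09 (mean ± SD, n = 4 each). The change was -0.11 (SE 0.53, 95% confidence interval -1.34 to 1.13, limma adjusted p = 0.933). The interval reached from 2.53-fold lower to 2.18-fold higher, so neither a 2-fold fall nor a 2-fold rise lay outside it. Without TULP replicate 1 the change was 0.36 (limma adjusted p = 0.370). The sign thus turned without the 1 array on which the miRNA was not detected. It also turned without sham replicate 2, to 0.02, and under other processing given below.

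miR-210-3p varied more than most, with a pooled SD of 0.82 on the log2 scale, larger than that of all tested miRNAs except 16. Among the 758 miRNAs its rank from the brightest was 142, 125, 127 and 128 on sham replicates 1 to 4 and 134, 118 and 111 on TULP replicates 2 to 4. The change was 0.17 when scaled to the 75th percentile, 0.26 to the summed signal and -0.53 to the spike-ins, and none of these passed. In the authors' table, where an undetected miRNA stays at 0.1 before the log, the change was -1.05 (limma adjusted p = 0.683).

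The other arm, miR-210-5p, was not detected on any array. Both of its probes had totals below 0 after background subtraction on all 8 arrays, from -2.34 to -0.31. These are the 2 shortest of the 7 probes.

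The changes of miR-126a-3p and miR-210-3p were compared within each array. The log2 normalized signal of miR-126a-3p minus that of miR-210-3p averaged 4.41 ± 0.39 over sham arrays and 4.52 ± 1.02 over TULP arrays (mean ± SD, n = 4 each). Their difference, 0.11, was smaller than the SD in either group (two-sided exact permutation p = 0.914, adjusted p = 0.914). On TULP replicate 1, where miR-210-3p was set to the floor, the quantity was 5.89, the highest of the 8 arrays. Without that array the difference turned to -0.32 (two-sided exact permutation p = 0.343). This compares the 2 changes, since levels of different probes cannot be set against each other.

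The miRNAs whose values over the 8 arrays lay nearest to those of miR-126a-3p, each centred on its own mean, were let-7d-5p, miR-324-3p and let-7i-5p. Their root mean square differences from it were 0.11, 0.11 and 0.13 on the log2 scale, against a median of 0.45 over the other 150 tested miRNAs. Their own changes were 0.12, 0.17 and -0.02 (limma adjusted p = 0.375, 0.326 and 0.911). For miR-210-3p the nearest were miR-1249, miR-296-5p and miR-290, at 0.28, 0.40 and 0.46 against a median of 0.80. Like miR-210-3p, miR-1249 and miR-296-5p were detected on 4 sham and 3 TULP arrays, so values at the floor enter these distances. All 8 arrays share the normalization, and these distances carry no test.

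A list of 26 miRNAs known from vessels and vessel growth gave the surroundings of miR-126a-3p. Of the 25 on the array, 16 were tested, and 3 of these passed the adjusted p higher in the TULP group, 1 passed lower and 12 did not pass. Among all tested miRNAs, 13.9% passed higher and 16.6% lower. The median change of the 16 was 0.13, against -0.02 for all tested. Their summed normalized signal was 2426 to 2654 in the sham group and 2720 to 2881 in the TULP group, without overlap. Many other tested miRNAs also had groups without overlap on this scale. The sum is weighted to bright miRNAs, and its brightest, miR-23b-3p, changed by 0.13 and did not pass (limma adjusted p = 0.457). With the spike-ins the sum was 2761 to 4132 against 1745 to 2247, without overlap in the opposite direction. On that scale 49.7% of single tested miRNAs were also lower without overlap. miR-221-3p, which restrains the receptor Kit in endothelial cells, rose by 1.69 (SE 0.50, limma adjusted p = 0.0379). It was detected on 3 of 4 sham arrays, so its sham mean of 1.68 ± 1.01 holds a value at the floor, and the groups overlapped. Its change was 0.90 with the sum over all probes, and it passed in 5 of its 23 alternatives. It passed without sham replicate 3 and missed the threshold without any other single array, at limma adjusted p-values of 0.0546 to 0.0979. miR-20a-5p, made from the same cluster as miR-17-5p, rose from 4.36 ± 0.28 to 5.45 ± 0.37 on the log2 scale, by 1.08 (SE 0.22, limma adjusted p = 0.0124). miR-322-5p, the rodent form of miR-424, rose by 0.76 (limma adjusted p = 0.0132). It passed in 17 of its 24 alternatives and missed with the slide row or the replicate number as a block (limma adjusted p = 0.0511 and 0.0613). The changes of miR-221-3p, miR-20a-5p and miR-322-5p were 0.82, 0.28 and 0.09 with the spike-ins, where none passed.

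miR-100-5p, a regulator of mTOR, was the 1 miRNA of the vessel list that passed lower after quantile normalization, going from 5.97 ± 0.24 to 5.41 ± 0.07 on the log2 scale (SD, n = 4 per group). The change was -0.56 (SE 0.13, limma adjusted p = 0.0163), and it passed in the same direction under each of its 24 alternatives. Several abundant vessel miRNAs did not pass and had narrow intervals. Among them were miR-23a-3p with a change of 0.07 (SE 0.08), miR-24-3p with 0.13 (SE 0.09), miR-27b-3p with 0.04 (SE 0.12) and miR-10a-5p with -0.06 (SE 0.10). Larger changes that did not pass were 0.30 for miR-27a-3p, 0.56 for miR-92a-3p and 0.62 for miR-19b-3p (limma adjusted p = 0.0905, 0.0644 and 0.116). Of the 16, 13 were higher in the TULP group and 3 lower, where the median change of all tested was -0.02. With the spike-ins, 9 of the 16 passed lower and 0 higher, where 54.3% of all tested miRNAs passed lower. The list's median was -0.64 there, beside -0.78 for all tested.

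A list of 17 miRNAs studied in low oxygen was read in the same way, and 6 of them are on the vessel list too. The list sets no direction of change for its miRNAs. Of the 16 tested, 3 passed the adjusted p higher, 3 passed lower and 10 did not pass. Among all tested miRNAs, 13.9% passed higher and 16.6% lower. The median change of the list was 0.10 against -0.02 for all tested. With the spike-ins 1 of the 16 passed higher and 10 lower, where 54.3% of all tested miRNAs passed lower. The summed normalized signal of the 16 was 3091 to 3547 in the sham group and 5200 to 5517 in the TULP group. Without miR-21-5p it was 2344 to 2521 against 2353 to 2670, which overlapped, and with the spike-ins 2677 to 4031 against 1553 to 2104. miR-21-5p, a miRNA of wounds and fibrosis, rose by 1.76 (SE 0.15, limma adjusted p = 0.000785) and passed in the same direction under each of its 24 alternatives. It was at the top of the common scale on all 4 TULP arrays, which fixes its normalized value there. miR-322-5p, on both lists, is given above. miR-199a-5p, which targets the messenger of hypoxia-inducible factor 1 alpha, rose by 0.60 (SE 0.16, limma adjusted p = 0.0257), although with the spike-ins its change was -0.07. It did not pass without sham replicate 3, TULP replicate 2 or TULP replicate 3 (limma adjusted p = 0.0541, 0.0712 and 0.0580). miR-199a-5p passed in 14 of its 24 alternatives, and missed with the slide row as a block (limma adjusted p = 0.103).

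The 3 that fell were miR-181b-5p, miR-181a-5p and miR-26b-5p. miR-181a-5p changed by -0.61 (SE 0.17, limma adjusted p = 0.0336), and its change was 2.31 with the stored totals per miRNA (limma adjusted p = 0.135). miR-26b-5p changed by -0.43 (SE 0.13, limma adjusted p = 0.0385). miR-181b-5p reached detection on 4 arrays of the sham group and 0 of the TULP group (limma adjusted p = 0.0336). From its sham mean of 2.14 ± 0.73, its level was estimated as at least 1.65-fold lower in the TULP group. This estimate rests on dim values, and with normexp background correction the change was -0.06 (limma adjusted p = 0.122). Of the arrays left out in turn, miR-181a-5p still passed only without sham replicate 1 or TULP replicate 1, and miR-26b-5p only without sham replicate 2 or TULP replicate 1. miR-181b-5p, which had too few detections to be tested without any 1 sham array, missed without TULP replicate 2, 3 or 4 (limma adjusted p = 0.0940, 0.0597 and 0.0877). miR-155-5p and miR-20b-5p had changes of 0.89 and 1.01 that did not pass (limma adjusted p = 0.236 and 0.153). Without TULP replicate 1, 5 of the hypoxia list passed higher and 4 lower, and of the vessel list 4 passed higher and 2 lower, while the share passing in either direction among all tested was 38.3%. With the row of the slide as a block these counts were 1 and 0 for the hypoxia list and 1 and 1 for the vessel list, and the share among all tested was 18.5%.

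**Figure D4:**
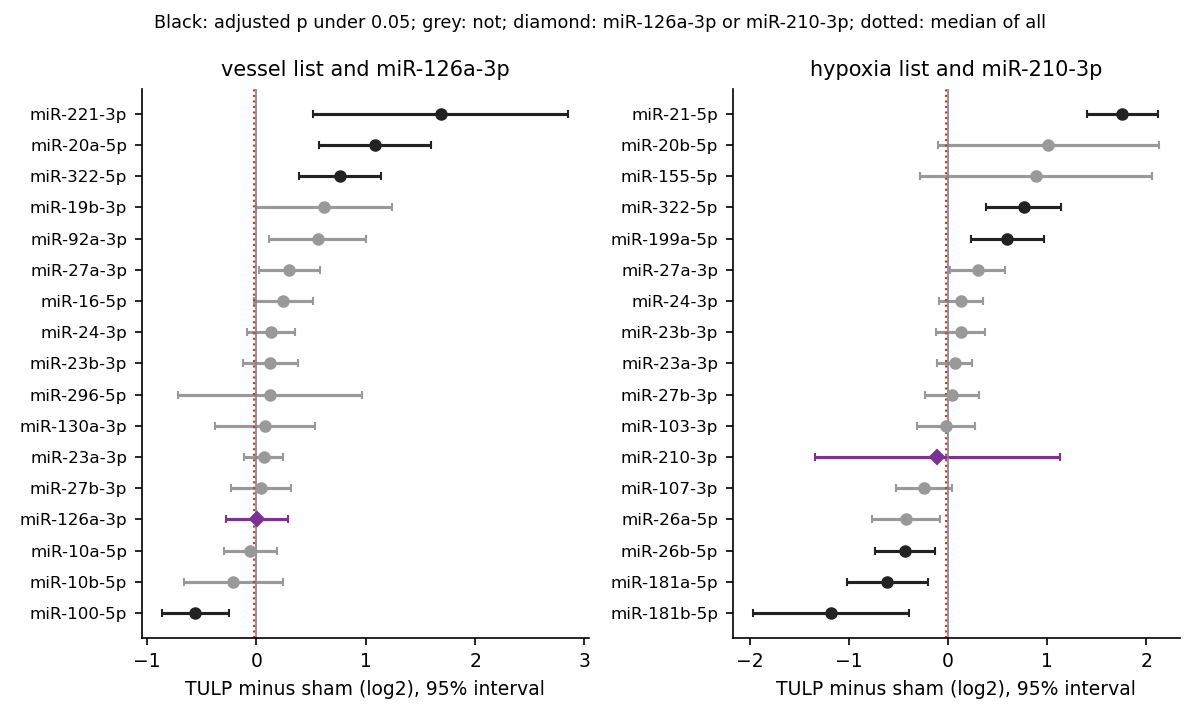
Change of the tested miRNAs of the vessel list (left, 16 miRNAs and miR-126a-3p) and the hypoxia list (right, 16 miRNAs and miR-210-3p), TULP minus sham on the log2 scale with 95% confidence intervals. Black points passed an adjusted p of 0.05, grey points did not, and the diamonds are miR-126a-3p at 0.01 and miR-210-3p at -0.11, both inside their lists.

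The miRNAs of other cell types moved in both directions on the same arrays. As a background to the counts below, 13.9% of all tested miRNAs passed the adjusted p higher and 16.6% lower. Of 5 tested leukocyte miRNAs 2 passed higher, miR-223-3p and miR-142-3p, and the summed normalized signal of that list was 58.7 to 80.9 in the sham group and 98.5 to 168 in the TULP group, without overlap. miR-150-5p of the same list had a change of -0.59 that did not pass (limma adjusted p = 0.0737), with all TULP arrays below all sham arrays. Groups without overlap were common among all tested miRNAs. miR-146a-5p and miR-155-5p did not pass either. The leukocyte count was 3 without TULP replicate 1 or sham replicate 2, and 1 without sham replicate 4 or TULP replicate 2. Of 2 tested red cell miRNAs, carried by blood in the vessels, miR-486 changed by -0.79 (limma adjusted p = 0.0498) and miR-451-5p by -0.66 (limma adjusted p = 0.597). miR-486 missed the threshold without sham replicate 1, 3 or 4 or TULP replicate 1, 2 or 3, and with the slide row as a block. The summed red cell signal was 62.0 to 99.3 against 34.5 to 79.7. miR-144-3p of that list was not detected on any array. Of the 2 tested miRNAs of smooth muscle and pericytes, miR-143-3p and miR-145-5p, 0 passed, with summed signals of 648 to 928 and 634 to 1315. Of 4 tested striated muscle miRNAs 3 passed lower (4043 to 5659 against 2639 to 4637), a count of 1 without sham replicate 1 or 3 and with the slide row as a block, and of 2 without sham replicate 4 or TULP replicate 2 or 3. Of 7 tested epithelial miRNAs 0 passed (488 to 675 against 389 to 938). The 938 was TULP replicate 1, and the other TULP arrays lay at 389 to 467, below all sham arrays. Without TULP replicate 1 the count was 4 lower, where 38.3% of all tested miRNAs passed in either direction. With the spike-ins 6 of the 7 passed lower, where 54.3% of all tested miRNAs passed lower. The median of the epithelial list was -1.37 there, beside -0.78 for all tested. The part of these other cell types in the values of miR-126a-3p and miR-210-3p was not tested.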

How the data were processed

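Total RNA of 4 sham and 4 TULP rats was labelled with 1 dye and hybridized to a rat miRNA array. The authors deposited, per array, the output of Agilent Feature Extraction 10.7.1.1, with background-subtracted spot intensity on a linear scale, not normalized between arrays. They also deposited a table of log2 values, quantile normalized with the control features. Detection and signal were rebuilt here from the probe totals. The signal of a miRNA was the sum over probes whose total exceeded 3 times its error, or 0.1 where none did, because the stored total exceeded that sum for 352 of 1191 detected values. Detection calls from this rule and the stored ones differed 0 times.

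Signals were quantile normalized over the 758 miRNAs, given a lower limit of 1.94, which is 0.96 as log2, and log2 transformed. miRNAs detected on 4 or more arrays, 151 in all, entered a limma fit (version 3.58.1, R 4.3.3) with group as the single term and Benjamini-Hochberg adjustment over all 151. Single values were compared by exact permutation over the 70 labellings of the arrays. The precision is limited by the number of arrays. The code was tested on simulated data.

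The miRNAs named were the members, the 3 tested miRNAs nearest in profile to each member, the vessel and hypoxia miRNAs past the adjusted p, and the 2 largest changes of each list in each direction. Markers of other cell types, 4 vessel miRNAs with narrow intervals, miR-23b-3p, miR-27a-3p, miR-92a-3p and miR-19b-3p were named after their values were seen. The members and lists were chosen with earlier results of these data known. The rule also matched rno-miR-210-5p. Alternatives changed the signal, background correction, scaling, floor, filter, blocks and test, and left out each array in turn. The test alternative was the t-test of the authors' methods, taken at its unadjusted p, also where passed alternatives are counted. Scaling to the summed signal of detected miRNAs was added after seeing the data. Sequences and positions are from RefSeq tables of GRCr8. The files' probe positions, on rn4, were not used.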

Additional observations from a re-analysis of the deposited data

Results flagged for a closer look

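In 3 of 34 groups of 4 arrays examined, 1 array lay far from the other 3 by Dixon's criterion. Chance flags about 5%, or 1.7 groups. For the log2 normalized signal of miR-210-3p it was sham replicate 1, low at 1.96. For the longer miR-210-5p probe, which was not detected on any array, it was sham replicate 1, at -0.31 against lower totals on the other sham arrays. For the log2 summed signal of the striated muscle list it was sham replicate 2, low at 11.98.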

How the results depend on the processing

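Both changes were near 0 against their errors, so their signs turned easily. The change of miR-126a-3p, 0.01, was -0.13 with the stored totals, -0.18 with normexp, -0.056 by the 75th percentile of miRNAs detected on all arrays, -0.57 without normalization, -0.80 with the spike-ins, -0.033 by quantile normalization of log2 values with control features, with the deposited table and by the methods' t-test on it, and -0.046 with the slide row as a block. It passed the adjusted p with the spike-ins and in none of its other 23 alternatives. The change of miR-210-3p, -0.11, was 0.43 with the stored totals, 0.0056 with the sum over all probes, 0.0027 with normexp, 0.17 by that percentile, 0.15 with the slide row and 0.26 by the summed signal, -1.05 with the deposited table and -1.18 with the floor at 0.1, and it passed in 0 of 23. The difference between both changes, 0.11, was -0.57 with the stored totals, -0.00021 with all probes, -0.18 with normexp, -0.23 by that percentile, -0.21 without normalization, -0.27 with the spike-ins, -0.20 with the slide row and -0.19 by the summed signal, and it was 1.01 with the deposited table or quantile normalization of log2 values and 1.18 with the floor at 0.1. Leaving out 1 array gave -0.033 to 0.082 for miR-126a-3p, -0.39 to 0.36 for miR-210-3p and -0.32 (without TULP replicate 1) to 0.36 for the difference. The 75th percentile of all miRNAs was the minimum signal on each array, so that scaling equalled none.

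Of the 151 miRNAs, 14 were called, and 1 with normexp, 34 without normalization, 53 with the spike-ins (5 higher, 48 lower), 8 when detection on all 8 arrays was required, 12 by the summed signal (11 higher, 1 lower), and 9 without TULP replicate 3 to 21 without TULP replicate 1. The methods' t-test, taken at its unadjusted p over 185 miRNAs, called 17. miR-181a-5p turned to 2.31 with the stored totals and miR-199a-5p to -0.074 with the spike-ins. Same-numbered arrays did not deviate together (r from -0.10 to 0.27, 2 of 4 sham arrays closest to their own number). With the replicate block the changes of miR-126a-3p and miR-210-3p stayed 0.01 and -0.11, their difference stayed 0.11, and 11 miRNAs were called. The causes were not tested. The change of miR-126a-5p, and of miR-126a-3p minus it, were not run since miR-126a-5p was not detected, and detection on all 8 arrays gives no value for miR-210-3p. Signal over background limits all statements on miR-210-3p and both 5p strands.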
